A study of Mus musculus with 160 samples.

Results

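The RNA of 10 factors by which bone marrow stroma supports blood stem and progenitor cells was followed across single stromal cells: Cxcl12, Kitl, Vcam1, Angpt1, Il7, Csf1, Il15, Jag1, Vegfa and Vegfc. The genes were chosen by name, with earlier results of these data known. Every row of the deposited table that carries one of these symbols was taken, and rows of the same name were added together. All 10 of 10 were found among 22866 distinct gene names. The cells came from the marrow of C57BL/6J mice, 78 cells from old mice (24 months in the sample labels, 2 years in the protocol text) and 82 cells from young mice (9 weeks in the labels, 10 weeks in the protocol). They were sorted as leptin receptor (LepR) and CD140a positive cells that lacked the blood, red cell and endothelial marks CD45, Ter119 and CD31, and were amplified one by one on a microfluidic chip (Fluidigm C1). The protocol counts 79 valid wells for old and 83 for young cells among 96 wells each, and 78 and 82 cells are analysed here. No treatment or transgene is named for either age, and no cell is tied to an animal, so each age counted as 1 sample. The differences between old and young cells below therefore have no replicate check and were not tested.

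Stroma that carries the leptin receptor wraps the sinusoids of the marrow and is its main source of CXCL12 and of stem cell factor, the product of Kitl. CXCL12 holds stem and progenitor cells in the marrow through the receptor CXCR4, stem cell factor keeps them alive through KIT, and VCAM1 anchors them through an integrin. The other members serve later or neighbouring steps: angiopoietin-1 (Angpt1) and the VEGF ligands act on vessels, IL-7 and IL-15 on lymphoid cells, CSF1 on macrophages and JAG1 on cells with Notch receptors.

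Values are FPKM, which divide the fragments of a gene by its length and by the fragments mapped in that cell, and how many fragments stand behind each cell is unknown. A gene is called listed in a cell at an FPKM of 1 or more. A value of 0 may be a failed estimate, since Gapdh was at 0 in 42 of 78 old and 49 of 82 young cells, although Actb and B2m were at 0 in none. Old cells listed a median of 1160 genes (193 to 2779) and young cells 1114.5 (129 to 2129). The FPKM of the named genes of a cell summed to a median of 74370 in old and 74835 in young cells. By this sum 9 old and 13 young cells lay above 3 times the median of all cells. Rows without a gene name lie outside the sum and held a median of 43.8% of the FPKM of old and 47.2% of young cells. Xist was listed in 54 old and 0 young cells and at least 1 of 4 Y-linked genes in 0 old and 34 young cells, so age and the sex of the mice cannot be told apart in any difference below. The wells are counted by age, 96 for each, so age and the capture run cannot be told apart either. Lepr was listed in 91.0% of old and 95.1% of young cells, Pdgfra, which encodes CD140a, in 38.5% and 34.1%. The 6 hematopoietic, 7 endothelial and 2 erythroid markers found in the table, Ptprc and Pecam1 among them, were listed in 0 cells of either age, where a 0 may again be a failed estimate. Of the 2 fibroblast markers at a mean of 1 FPKM or more, 1, the proteoglycan gene Dcn, was higher in old cells (52 of 78 against 34 of 82). The summed fibroblast list ran from 0 to 6790 FPKM in old cells and from 0 to 504 in young cells. Dcn alone reached 6453 FPKM in old and 504 FPKM in young cells. Ly6a and Cd34 were each listed in 1 old and 0 young cells, and S100a4, Clec3b and Pi16 in 0 cells of either age. The part of this list in the differences below was not tested. Of the 6 osteoblast markers measured, 1, the bone sialoprotein gene Ibsp, was lower in old cells (69 of 78 against 81 of 82), with a difference of mean log2(FPKM + 1), old minus young, of -1.25. The osteoblast marker Bglap was listed in 1 old and 0 young cells. The summed osteoblast list ran from 0 to 25217 FPKM in old cells, with a median of 280.2. In young cells it ran from 0.0698 to 26673 FPKM, with a median of 534. Ibsp alone reached 25217 and 26673 FPKM, so the highest sums rest on that gene. Sp7 was listed in 4 old and 4 young cells, Alpl in 5 and 7, and Col1a1 in 14 and 9. The part of the osteoblast list was not tested either.

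Promoters are shown for Cxcl12 and Kitl, the members listed in the most cells of both ages. Each sequence holds the 250 bases before the RefSeq start of the gene in build GRCm38.p6, read 5′ to 3′ on the gene's strand. Cxcl12 lies on the plus strand at chr6:117168285-117168534 and Kitl on the plus strand at chr10:100015571-100015820. Capitals mark the GC box letters GGGCGG on either strand, some of which overlap, and the TATA box letters TATAAA on either strand.
Cxcl12: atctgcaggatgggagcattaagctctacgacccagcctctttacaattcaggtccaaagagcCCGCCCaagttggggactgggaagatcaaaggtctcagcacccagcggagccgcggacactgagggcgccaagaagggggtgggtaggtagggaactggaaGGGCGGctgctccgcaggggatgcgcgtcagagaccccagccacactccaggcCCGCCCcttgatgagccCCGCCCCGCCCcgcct
Kitl: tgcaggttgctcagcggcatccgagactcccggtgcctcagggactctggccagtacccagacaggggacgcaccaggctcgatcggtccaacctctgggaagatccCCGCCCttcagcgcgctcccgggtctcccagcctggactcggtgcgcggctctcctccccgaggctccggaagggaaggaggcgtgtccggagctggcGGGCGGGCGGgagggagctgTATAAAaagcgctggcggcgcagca

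The Cxcl12 window held 5 GC boxes and no TATA box, and the Kitl window held 3 GC boxes and 1 TATA box at bases -25 to -20 from the start. At least 1 GC box was present in 32.7% of all 32851 promoter windows of that length and at least 1 TATA box in 12.4%. GC content was 64.4% for Cxcl12 and 69.2% for Kitl, against a median of 52.4% over all windows. Of the 10 members, 6 had a promoter in the table, and GC boxes were found for 5 of these, all but Jag1. TGTTTAC, letters bound by forkhead factors such as FOXC1, was found on either strand in 0 of the 6 and in 3.17% of all windows. The paired EBF letters TCCC and GGGA, 2 bases apart, were found in 0 of the 6 and in 0.779% of all windows. These matches describe letters in a short window and say nothing of which factors act there.

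Cxcl12 stood above the other members in mean level in both ages. It ran from 0.104 to 18829 FPKM in old cells, with a median of 823 and quartiles of 555 and 1291. In young cells it ran from 10.6 to 5551 FPKM, with a median of 966 and quartiles of 590 and 1277. The ages overlapped almost fully: 26.9% of old cells lay below the lower young quartile and 25.6% above the upper one. Cxcl12 exceeded Kitl, the next member, in 76 of 78 old and 76 of 82 young cells, and the interquartile ranges of these 2 genes did not overlap in either age. Among all named genes of a cell Cxcl12 had a median rank of 9 in old and 6.5 in young cells, and it was among the 10 highest genes in 43 old and 51 young cells. Its lowest rank was 1553, in the 1 old cell that did not list it, and 80 in young cells.

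**Figure D1:**
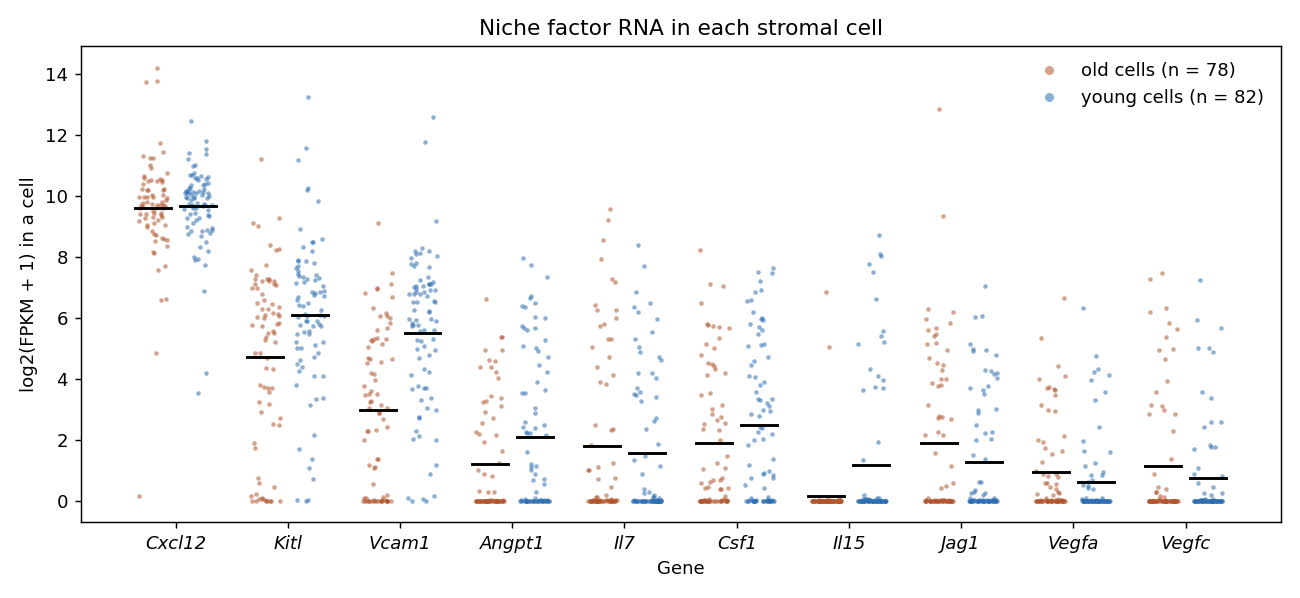
Each point is the log2(FPKM + 1) of a niche factor in 1 cell, with old cells (n = 78) left of young cells (n = 82) for each gene and a black bar at the mean over cells. Cxcl12 forms a single high band in both ages, Vcam1 and Kitl have lower means in old cells (2.96 and 4.70) than in young cells (5.51 and 6.08), and the other members have many cells at or near 0.

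Below Cxcl12 the members formed a graded order in which neighbours overlapped. By mean log2(FPKM + 1), old cells ran from Kitl (4.70) and Vcam1 (2.96) through Csf1 (1.89), Jag1 (1.87), Il7 (1.78), Angpt1 (1.19) and Vegfc (1.12) to Vegfa (0.92) and Il15 (0.15). Young cells ran from Kitl (6.08) and Vcam1 (5.51) through Csf1 (2.48), Angpt1 (2.101), Il7 (1.55), Jag1 (1.28) and Il15 (1.16) to Vegfc (0.73) and Vegfa (0.62). In each age the interquartile ranges of every pair of neighbours from Kitl downward overlapped, so these orders are no firm ranking. Kitl exceeded Vcam1 in 58 old cells and was below it in 15, whereas in young cells the 2 numbers were 47 and 35.

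Between the ages, Vcam1, Kitl and Il15 were lower in old cells by 1 or more in mean log2(FPKM + 1), the size used here to call a difference, and no member was higher by that size. For Kitl the sign turned to 0.12 among cells of middling gene number, as given with that gene. These 3 calls among 10 members stand beside 0.917% of the 7196 measured genes (those averaging at least 1 FPKM over the cells of an age) that were lower in old cells by that size, and 0.695% that were higher. Genes listed in few cells cannot differ by much on this scale. Among the 1272 measured genes listed in at least 25% of the cells of an age 4.87% were lower and 3.77% higher by that size. Of the 8 members that met this mark 2 were lower. The members were chosen with earlier results of these data known, so neither count can be read as an excess. Below 0 by any size were 6 of 10 members, against 51.1% of measured genes, and 6 of 10 were listed in a smaller share of old than of young cells, against 49.7% of measured genes, both near the background. The median difference over members was -0.31 and over measured genes -0.01. Il15 lay just inside the called size (-1.01) and Angpt1 just outside it (-0.91).

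VCAM1 is the adhesion molecule of the set, and by mean log2(FPKM + 1) its RNA showed the largest difference between the ages among the members. By the log2 ratio of mean FPKM, Vcam1 had -2.71, less in size than Il15 (-2.91) and Jag1 (3.81). Vcam1 ran from 0 to 553 FPKM in old cells, with a median of 7.23, and from 0 to 6122 FPKM in young cells, with a median of 60.2. The groups overlapped, but 48 of 78 old cells (61.5%) lay below the lower young quartile of 13.6 FPKM and 3 above the upper one of 131 FPKM. The difference of mean log2(FPKM + 1), old minus young, was -2.55. Vcam1 was listed in 53 old cells (67.9%, exact 95% interval 56.4 to 78.1) and 76 young cells (92.7%, 84.8 to 97.3). Among the cells that listed it the median was also lower, 21.6 FPKM in old and 73.1 FPKM in young cells, so the difference lay in the share of cells and in the level per listed cell. Restricted to cells within the pooled interquartile range of gene number (637 to 1374 genes, 37 old and 43 young cells) the difference was -2.96. Over all settings tried it ran from -3.39 to -1.56.

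Kitl was carried by most cells of both ages and was lower in old cells as a whole. It ran from 0 to 2351 FPKM in old cells, with a median of 45.2, and from 0 to 9736 FPKM in young cells, with a median of 71.8. It was listed in 62 old cells (79.5%, 68.8 to 87.8) and 78 young cells (95.1%, 88.0 to 98.7), and the difference of mean log2(FPKM + 1) was -1.38. The size of the difference moved with the number of genes listed in the cells. Among cells above the median gene number of their age Kitl was listed in 36 of 39 old and 41 of 41 young cells. Among the other cells it was listed in 26 of 39 old and 37 of 41 young cells. Without cells under 50% of the median gene number the difference was -0.40, and within the pooled interquartile range of gene number it turned to 0.12, with Kitl listed in 33 of 37 old cells (89.2%, 74.6 to 97.0) and 41 of 43 young cells (95.3%, 84.2 to 99.4). The share of cells was lower in old cells in each of these sets. As a log2 ratio of mean FPKM without the highest and lowest 5% of cells, the difference was -0.84.

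Kitl was split over 3 rows of the table, and the rows did not weigh alike. The row listed in the most cells was found in 59 old (75.6%) and 74 young cells (90.2%). Another row was found in 30 old (38.5%, 27.7 to 50.2) and 52 young cells (63.4%, 52.05 to 73.8) and held 61.5% of the summed FPKM of Kitl. The last row was found in 2 old and 4 young cells. Taken alone, the 3 rows differed between old and young cells by -0.93, -1.50 and -0.11 in mean log2(FPKM + 1). What separates the rows is not given in the table, so they cannot be assigned to transcript forms such as the membrane-bound and soluble ones known for this ligand.

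**Figure D2:**
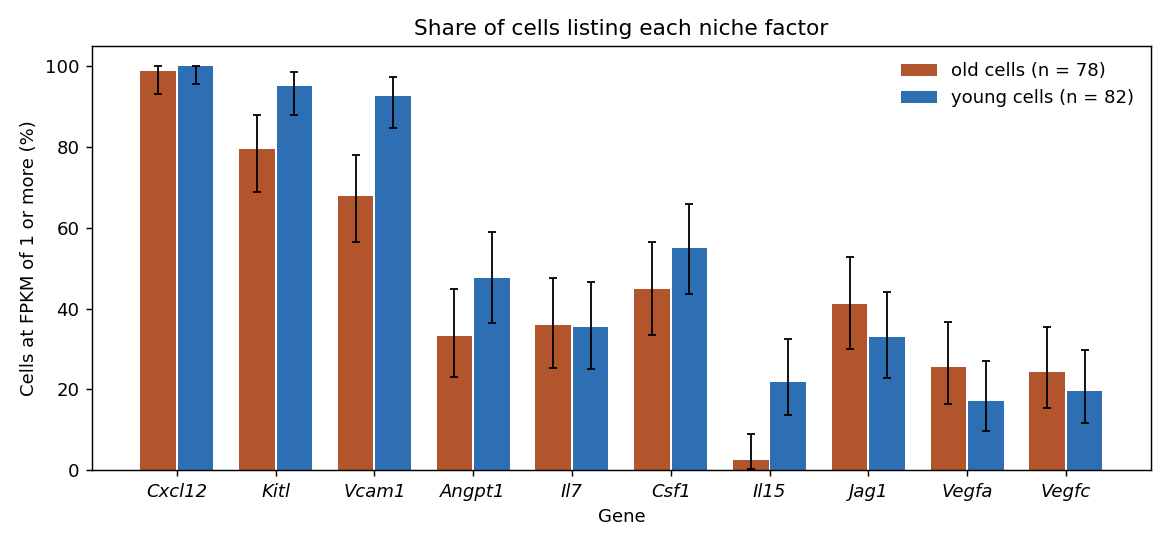
Bars give the percent of cells with an FPKM of 1 or more for each niche factor, in old cells (n = 78, left) and young cells (n = 82, right), with exact 95% binomial intervals that cover counting error only. The intervals of old and young cells do not overlap for Vcam1, Kitl and Il15, and they overlap for the other 7 genes. For Kitl the old interval ends at 87.8% and the young one begins at 88.0%. Among cells within the pooled interquartile range of gene number the Kitl intervals overlap (74.6 to 97.0 and 84.2 to 99.4). The share of all measured genes with intervals apart is not given, so the number of members with intervals apart cannot be read as an excess.

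Il15, the cytokine that sustains natural killer cells and memory T cells, was listed mostly in young cells. It was listed in 2 old cells (2.56%, 0.312 to 8.96), at 31.99 and 114 FPKM, and in 18 young cells (21.95%, 13.6 to 32.5), where the median of listed cells was 34.8 FPKM and the highest 419 FPKM. The difference of mean log2(FPKM + 1) was -1.01. It passed the size of 1 narrowly, and was -0.90 within the pooled interquartile range of gene number, where Il15 was listed in 0 of 37 old cells (3 cells of 37 would be 8.11%, and the exact upper limit is 9.49%) and in 8 of 43 young cells (18.6%, 8.39 to 33.4). After every cell was rescaled to the same summed FPKM it was -0.93. Among cells above the median gene number Il15 was listed in 2 of 39 old and 13 of 41 young cells, and among the other cells in 0 of 39 old cells (3 cells of 39 would be 7.69%, and the exact upper limit is 9.03%) and in 5 of 41 young cells. The 2 rows named Il15 behaved differently: 1 row was listed in 1 old and 18 young cells and the other in 1 old and 0 young cells. All 18 young and 2 old cells that listed Il15 also listed Cxcl12, Kitl and Vcam1. These 3 genes were listed together in 89.0% of all young and 62.8% of all old cells. Among young cells above the median gene number, which hold 13 of the 18, each of the 3 was listed in 41 of 41. The count is thus no trait particular to cells with Il15.

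Angpt1, which encodes the ligand of the receptor TIE2, came next in size. It was listed in 26 old cells (33.3%, 23.1 to 44.9) and 39 young cells (47.6%, 36.4 to 58.9), with intervals that overlapped. In listed cells the median was 8.92 FPKM in old and 20.8 FPKM in young cells, the highest values were 97.6 and 246 FPKM, and the difference over all cells was -0.91. The difference kept its sign in every setting tried, from -1.71 to -0.47. Csf1, the macrophage growth factor, was listed in 35 old cells (44.9%, 33.6 to 56.6) and 45 young cells (54.9%, 43.5 to 65.9), with medians of 17.2 and 16.1 FPKM in listed cells and a difference of -0.59. Its levels in listed cells were thus nearly the same in the ages while the shares leaned toward young cells, within overlapping intervals.

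Il7, the growth factor of B cell progenitors, was listed in nearly equal shares, 28 old cells (35.9%, 25.3 to 47.6) and 29 young cells (35.4%, 25.1 to 46.7). Its median in listed cells was 35.03 FPKM in old and 17.2 FPKM in young cells, and the difference over all cells was 0.23. Of the 3 rows named Il7, 1 was listed in only 3 old and 2 young cells but reached 755 FPKM in old cells and 113 FPKM in young cells, and held 44.4% of the summed FPKM of the gene. The row listed in the most cells was found in 23 old and 23 young cells, and its difference was 0.11. The level of Il7 therefore rests on few cells while its share does not differ between the ages beyond the counting interval.

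The Notch ligand Jag1 and both VEGF ligands had higher mean log2(FPKM + 1) in old cells, by less than the called size on that scale. Jag1 was listed in 32 old cells (41.03%, 30.0 to 52.7) and 27 young cells (32.9%, 22.9 to 44.2), with a difference of 0.59. A single old cell reached 7399 FPKM and held 84.2% of the Jag1 FPKM of old cells, whereas the next old cell had 648 FPKM and the highest young cell 129 FPKM. The log2 ratio of mean FPKM was 3.81 over all cells. With the top and bottom 5% of cells trimmed from each age it was 1.06. The difference of mean log2(FPKM + 1) was 0.52 without the highest cell of each age. Vegfa, the main vascular growth factor, was listed in 20 old cells (25.6%, 16.4 to 36.8) and 14 young cells (17.1%, 9.66 to 26.98), with medians in listed cells of 8.94 and 9.77 FPKM and a difference of 0.31. Vegfc, which acts on lymphatic and sinusoidal endothelium, was listed in 19 old cells (24.4%, 15.3 to 35.4) and 16 young cells (19.5%, 11.6 to 29.7), with medians in listed cells of 24.1 and 7.16 FPKM and a difference of 0.39. The intervals of the shares overlapped for all of these genes. Counted at any FPKM above 0, the shares turned for Jag1 (55.1% of old, 56.1% of young cells) and Vegfc (35.9% and 36.6%). As a log2 ratio of mean FPKM without the highest and lowest 5% of cells, Vegfc reached 1.31, and Il7 1.04, past a size of 1.

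Cxcl12 differed by -0.04 in mean log2(FPKM + 1) between old and young cells, and by 0.04 after each cell was rescaled to the same sum. Its SD over cells on that scale was 1.76 in old and 1.33 in young cells, and 1.40 in old cells without the 1 cell that did not list it. The 1 old cell at 0.104 FPKM and 3 old cells at 13619, 13933 and 18829 FPKM lay outside the young range of 10.6 to 5551 FPKM. Its mean FPKM was accordingly higher in old cells (1509 against 1071), while its median was lower (823 against 966).

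Most cells carried several factors at once. Old cells listed between 1 and 8 of the 10 members, with a median of 4.5 and quartiles of 3 and 6. Young cells listed between 2 and 9, with a median of 5 and quartiles of 4 and 6. At least 3 members were listed in 64 old cells (82.1%, 71.7 to 89.8) and 79 young cells (96.3%, 89.7 to 99.2), and at least 7 in 13 old (16.7%, 9.18 to 26.8) and 18 young cells (21.95%, 13.6 to 32.5). No cell listed all 10. At the low end, 14 old and 3 young cells listed 2 members or fewer.

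**Figure D3:**
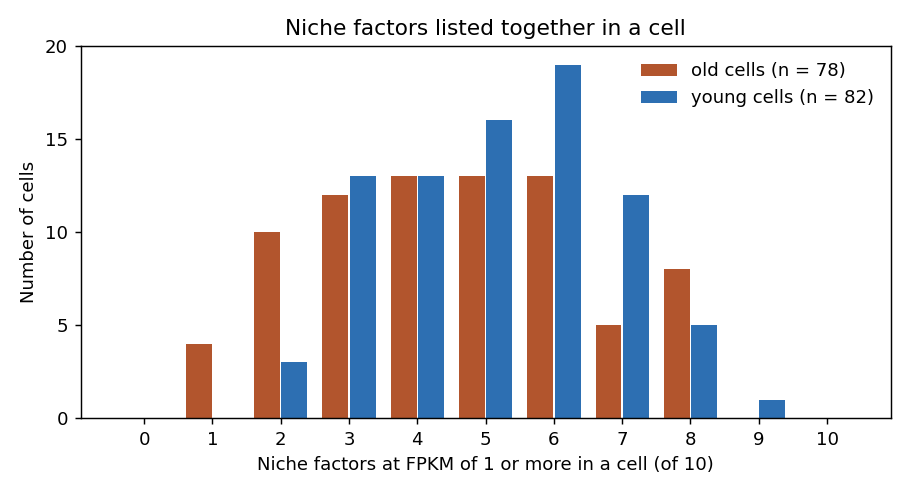
Bars give the number of cells that listed 0 to 10 of the niche factors at an FPKM of 1 or more, old cells (n = 78) left of young cells (n = 82). The bars at 1 and 2 members hold 14 old and 3 young cells, and the tallest bar of young cells stands at 6 members.

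The number of members listed in a cell followed the number of genes listed in it. Over cells, Spearman rho between the 2 numbers was 0.70 in old (n = 78) and 0.67 in young cells (n = 82), and the members are among the genes counted. Cells above the median gene number of their age listed a median of 6 members in both ages, while the other cells listed a median of 3 (old) and 4 (young). Single members followed gene number to different degrees. In old cells rho ran from 0.12 for Cxcl12 to 0.55 for Vegfa, and in young cells from 0.05 for Kitl to 0.47 for Il15. Vegfa in old cells was listed in 17 of 39 cells with more genes and 3 of 39 with fewer.

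Cxcl12, Kitl and Vcam1 were listed together in 49 old cells (62.8%, 51.1 to 73.5) and 73 young cells (89.0%, 80.2 to 94.9). Neither Kitl nor Vcam1 was listed in 12 old cells (15.4%, 8.21 to 25.3) and in 1 young cell (1.22%, 0.0309 to 6.61). In old cells Vcam1 was listed in 49 of the 62 cells with Kitl and in 4 of the 16 cells without it. In young cells the counts were 73 of 78 and 3 of 4. Of the 16 old cells that did not list Kitl, 12 did not list Vcam1 either. Of the 25 old cells that did not list Vcam1, 12 did not list Kitl. Cells that did not list a gene include those with values between 0 and 1 FPKM. Gene number moved with both genes in old cells. Spearman rho of Kitl and Vcam1 was 0.31 in old and 0.12 in young cells, and with the number of genes listed held fixed it was 0.17 and 0.11. Within the pooled interquartile range of gene number it was 0.36 in old and 0.26 in young cells.

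**Figure D4:**
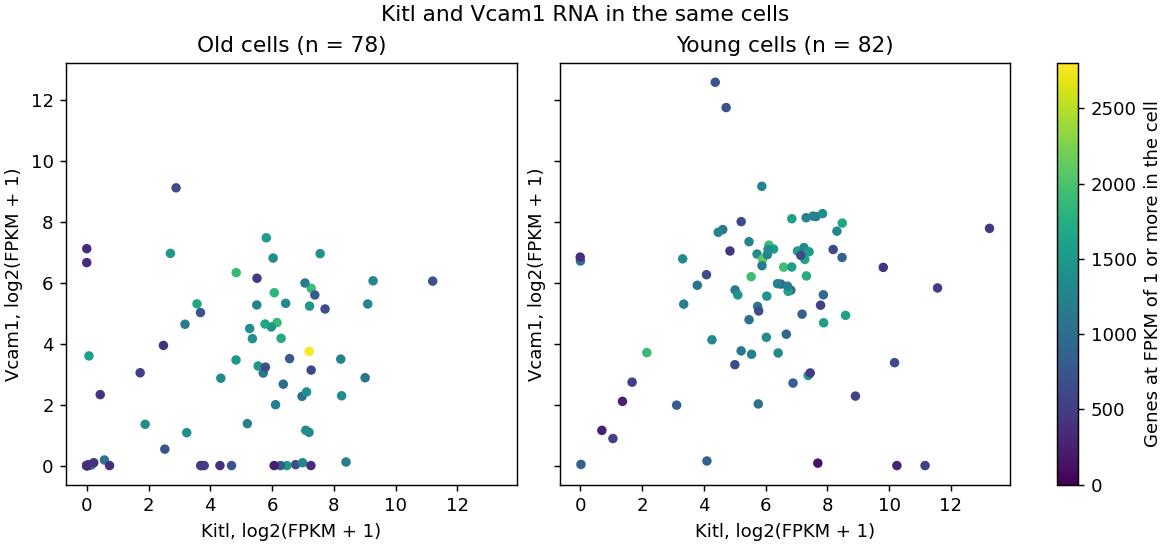
Each point is a cell, placed by its Kitl (x) and Vcam1 (y) RNA as log2(FPKM + 1) and coloured by the number of genes it listed, with old cells (n = 78) left of young cells (n = 82). The lower left corner, where neither gene was listed, holds 12 old cells and 1 young cell.

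Co-variation between members was weak and close to that between genes in general. Pairs were compared where each member was listed in at least 25% of the cells of the age, which left 28 pairs of 8 members in old cells and 21 pairs of 7 in young cells. The median Spearman rho was 0.19 in old cells, running from -0.14 to 0.32, and 0.12 in young cells, running from -0.09 to 0.30. Over all pairs of named genes that met the same mark the median was 0.18 in old cells (527878 pairs) and 0.16 in young cells (589155 pairs). A rho of 0.3 or more was found in 5 of 28 member pairs in old cells, where 15.4% of all pairs reached it, and in 1 of 21 member pairs in young cells, where 12.4% of all pairs did. With gene number held fixed the member medians were 0.05 in old and 0.08 in young cells, against 0.02 and 0.01 over all pairs. The cells of an age share 1 set of 96 wells and the chemistry, so capture run and age cannot be told apart here, and these values carry no test.

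**Figure D5:**
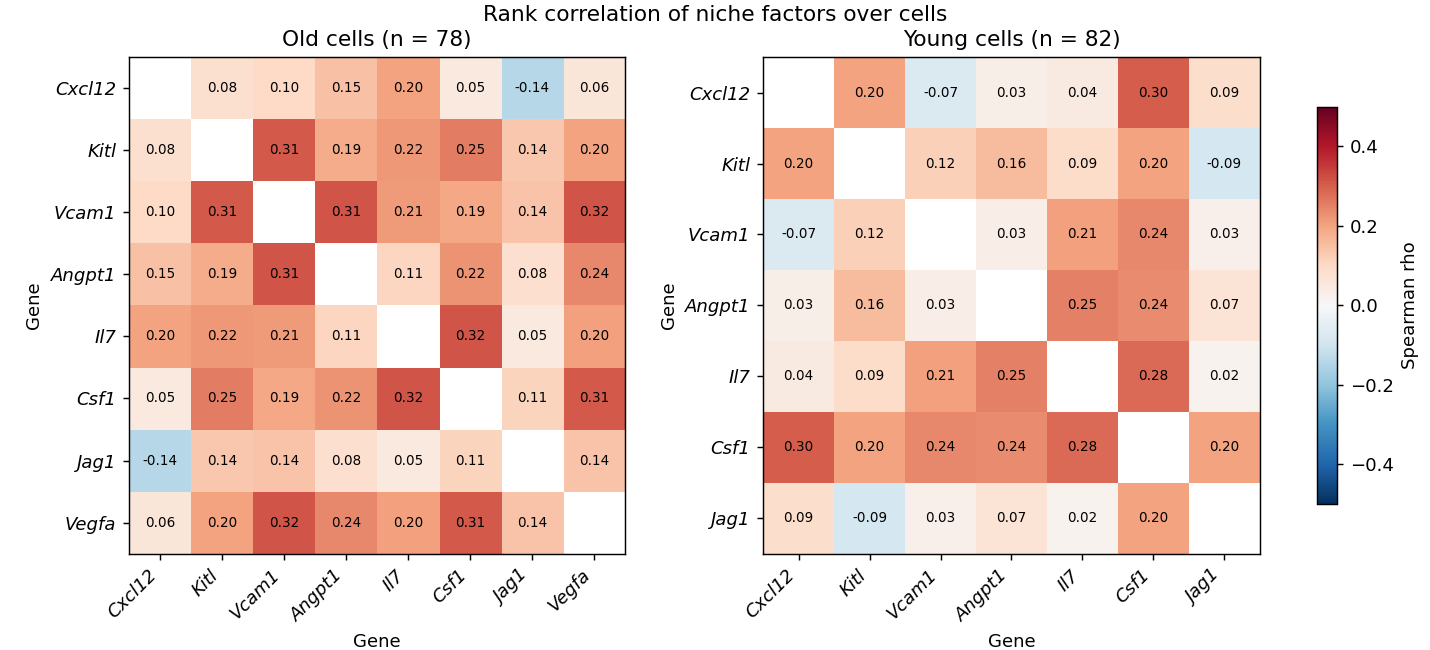
Squares give Spearman rho between 2 niche factors over old cells (left, n = 78) and young cells (right, n = 82), for members listed in at least 25% of the cells of the age, on a colour scale from -0.5 to 0.5. Values run from -0.14 to 0.32 in old and from -0.09 to 0.30 in young cells, and no block of high values stands out.

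The pair of Il7 and Csf1 had a similar rho in both ages, 0.32 in old and 0.28 in young cells, and 0.23 and 0.19 with gene number held fixed. Over the other settings tried it ran from 0.10 to 0.35 in old and from 0.18 to 0.33 in young cells. Csf1 was listed in 17 of the 28 old cells with Il7 and 18 of the 50 without it, and in young cells in 19 of 29 and 26 of 53. Other pairs differed between the ages. Csf1 and Cxcl12 had the highest rho of young cells (0.30) and 0.05 in old cells, Vcam1 and Angpt1 had 0.31 in old and 0.03 in young cells, and Cxcl12 and Jag1 had the lowest rho of old cells (-0.14) and 0.09 in young cells. With gene number held fixed, Csf1 and Cxcl12 had 0.23 in young and 0.004 in old cells. Vcam1 and Angpt1 then had 0.14 in old and -0.12 in young cells, and Cxcl12 and Jag1 -0.17 and -0.003. Within the pooled interquartile range of gene number, Csf1 and Cxcl12 had 0.02 in young cells and Vcam1 and Angpt1 0.05 in old cells. These 3 pairs, and the pair of Il7 and Csf1, were picked by their values, and none of the differences between the ages was tested.

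The genes most like the 3 leading members over cells were sought among 177 other genes listed in at least 50% of the cells of each age, by the mean of rho in old and rho in young cells. For Cxcl12 these were Esm1, which encodes the proteoglycan endocan (0.38 in old, 0.30 in young cells), Igfbp7, a binding protein of insulin-like growth factors (0.31 and 0.27), and Serinc3 (0.23 and 0.27). For Kitl they were the ferroxidase gene Cp (0.37 and 0.22), the splicing kinase gene Clk1 (0.36 and 0.20) and the adipokine gene Adipoq (0.34 and 0.18). For Vcam1 they were the matrix protein gene Sparc (0.35 and 0.40), Serping1, which encodes the C1 inhibitor of complement (0.23 and 0.44), and the kininogen gene Kng1 (0.34 and 0.31). The median of the mean rho over the 177 genes was 0.05 for Cxcl12, 0.11 for Kitl and 0.18 for Vcam1. The genes named are the highest of many and were picked by these values. Lepr, the gated receptor, had 0.08 in old and 0.24 in young cells with Cxcl12, 0.27 and 0.11 with Kitl and 0.25 and 0.29 with Vcam1.

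Of the receptors for these factors few were listed in the stromal cells themselves. Of 19 receptor genes that could be found, 9 were listed in no cell, and 5 had a mean of 1 FPKM or more in an age. Of these 5, 0 differed by 1 or more in mean log2(FPKM + 1). Few of all 7196 measured genes did so, with 0.917% lower and 0.695% higher in old cells. Notch2, a receptor for JAG1, was listed in 50 old (64.1%) and 51 young cells (62.2%), and Itgb1, the beta chain of the integrin that binds VCAM1, in 37 old (47.4%) and 37 young cells (45.1%). Itga4, an integrin alpha chain on the same list, was listed in 0 old and 0 young cells (exact upper limits 4.62% and 4.40%). Itgb1 alone therefore does not show that this integrin is present. Nrp2, a co-receptor of VEGF-C, was listed in 13 old and 17 young cells, and Notch3 in 3 and 13. Cxcr4 was listed in 0 old cells, where 3 cells of 78 would be 3.85% and the exact upper limit is 4.62%, and in 1 young cell. Kit was listed in 6 old and 6 young cells.

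Among 24 other niche ligands that could be found, 14 were measured, 4 were lower in old cells by the called size and 0 higher, with a median difference of -0.03. Over all 7196 measured genes 0.917% were lower and 0.695% higher by that size. Among the 1272 measured genes listed in at least 25% of the cells of an age, 4.87% were lower and 3.77% higher. The list was chosen with earlier results of these data known, so its count cannot be read as an excess. The 4 were Spp1, Igf1, Angptl4 and Pgf, and all but Pgf met the mark of 25%. Pgf, placental growth factor, a relative of Vegfa and Vegfc, was listed in 2 old (2.56%) and 20 young cells (24.4%), with a difference of -1.01. Angptl4, a lipase inhibitor of the angiopoietin-like family, was listed in 10 old (12.8%) and 40 young cells (48.8%), with a difference of -1.58. Il34, the other ligand of the CSF1 receptor, was listed in 10 old (12.8%) and 20 young cells (24.4%), with a difference of -0.54. Ptn, which encodes the growth factor pleiotrophin, was listed in 14 old (17.9%) and 3 young cells (3.66%), with a difference of 0.57.

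Of 12 stromal transcription factors measured and 8 measured genes for the shedding or processing of these ligands, 0 differed by the called size in either direction. The 8 include Timp3, which encodes an inhibitor of metalloproteinases (-0.54). Over all 7196 measured genes 0.917% were lower and 0.695% higher by that size, so 0 calls in such short lists lie near the background. Ebf1, which encodes a factor needed in mouse marrow stroma for niche factor expression, was listed in 51 old (65.4%) and 68 young cells (82.9%), with a difference of -0.90. Ebf3 was listed in 48 old and 55 young cells (-0.35), and Foxc1, which maintains the CXCL12-rich stroma in mice, in 48 old and 45 young cells (0.76). Epas1, which encodes a hypoxia-responsive factor, was listed in 54 old and 57 young cells (0.59). Among the enzymes, Adam10 was listed in 13 old and 15 young cells and Adam17 in 9 old and 6 young cells.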

How the data were processed

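Per the labels' protocols, marrow stromal cells were sorted, captured on Fluidigm C1 chips and amplified with SMARTer chemistry, and wells with 0, several or shrunken cells were set aside by microscopy, so no doublet caller was run. The authors deposited 1 table of FPKM values, 1 column per cell. Cufflinks 2.1.1 and build mm9 appear in the submitters' processing notes. No source here names the aligner, the filters, the handling of shared reads or the fragment numbers, so the depth is unknown and no count model was used. Of 31199 rows the 7751 without a gene name were not used, and rows of equal name were summed.

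Groups came from the age in the labels. The main measures were the share of cells at an FPKM of 1 or more, with exact Clopper-Pearson 95% intervals, and the difference of mean log2(FPKM + 1), old minus young, called at a size of 1. With this pseudocount a difference understates the change of low genes. Genes averaging at least 1 FPKM over the cells of an age counted as measured. Spearman rho was computed within each age, also with the rank of the number of genes listed held fixed. Because each age is 1 sample, no test was made, and intervals cover counting error only. Cell numbers in the labels name cells and pair nothing. The 3 genes most like Cxcl12, Kitl and Vcam1 were those with the highest mean rho over the ages among single named genes that are no member and no ribosomal protein, predicted or small RNA gene. Genes of the lists could be named where at least 10% of the cells of an age listed them. Those named are some of these, and they, with Cxcr4, Kit and Itga4 below that mark and the markers Ibsp, Bglap and Dcn, were chosen after their values were seen. Members and lists were chosen with earlier results of these data known. The functions were tested on simulated data. Computation used Python 3.11.15, NumPy 2.4.6, pandas 2.3.3 and SciPy 1.17.1; promoters came from RefSeq, build GRCm38.p6, and no mm9 coordinates are given.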

Additional observations from a re-analysis of the deposited data

How the results depend on the processing

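No paired analysis was possible because the cell numbers shared by the ages are names and each age is 1 sample. Values were taken as moved when they changed by more than 1.5 times, and shares when they left their 95% interval. The number of members below 0 (6) ran from 5 to 6 over the settings and the number with a lower share in old cells (6) from 6 to 7. The median difference over members (-0.31) was -0.056 by the ratio of mean FPKM, 0.050 in cells within the pooled interquartile range of gene number, -0.48 with a pseudocount of 0.1 and -0.14 with a pseudocount of 10. The number of members lower by 1 or more (3) was 1 in that range and 1 with a pseudocount of 10. Kitl turned from -1.38 to 0.12 in that range; the cause was not tested. The median pair rho of old cells (0.19) was 0.10 as Pearson r of log2 values, 0.065 without cells under 50% of the median gene number, 0.054 in the interquartile range and 0.047 with gene number held fixed. That of young cells (0.12) was 0.19 after rescaling each cell to the same sum. Rescaling left the median difference of all measured genes at -0.01. The use of only the highest row per name, and leaving out the highest cell of each age, were chosen after seeing the data; leaving out cells of extreme summed FPKM kept 69 old and 69 young cells. Unknown depth limits what a gene listed in few cells can show.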
